A study of Mus musculus with 6 samples.

Results

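The hypoxia-inducible factors (HIFs) and the proteins that control them were followed in articular cartilage, the cartilage that covers the joint surfaces, of young and aged mice. The 10 genes were chosen by symbol and by role. They comprised the alpha subunits Hif1a, Epas1 (encoding HIF-2alpha) and Hif3a, the beta subunit Arnt, the prolyl hydroxylases Egln1, Egln2 and Egln3, the ubiquitin ligase subunit Vhl, the asparaginyl hydroxylase Hif1an, and Vegfa as a classical target. All 10 had a row in the table of 33971 genes, and all 10 were among the 20397 genes with enough reads to be tested. RNA sequencing had been carried out on 3 libraries from WT mice aged 2 months and 3 libraries from WT mice aged 18 months, with no other genotype or treatment, to find expression changes of cartilage with age. The study's methods name male mice without giving a strain for the WT animals or stating whether animals were pooled, so p-values here measure the spread between libraries. Levels are given as FPKM, fragment counts corrected for transcript length and for the depth of the library.

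In cells with ample oxygen, prolyl hydroxylases modify the HIF alpha subunits, the VHL complex recognizes the modified subunit and marks it for degradation, and the asparaginyl hydroxylase keeps what remains from binding its coactivators. When oxygen is scarce the alpha subunits persist, pair with the beta subunit ARNT and activate genes of glycolysis, blood vessel growth and matrix modification. Cartilage has no blood vessels, and HIF-1alpha is known to sustain chondrocyte survival in it, whereas HIF-2alpha has been linked to hypertrophy and to matrix-degrading enzymes. Because much of this control acts on protein, transcript levels describe only part of it.

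Total counts per library ran from 48171507 to 51683577 at 2 months and from 55201357 to 59085179 at 18 months. The cell markers differed strongly between the ages. The 15 chondrocyte markers took 4.57% to 7.06% of counts at 2 months and 0.0633% to 0.169% at 18 months, all 15 lower without overlap, although none was at 0 in every aged library. Neutrophil markers (13 of 13 higher without overlap) took 0.00130% to 0.374% at 2 months and 4.19% to 4.50% at 18 months, and erythroid markers (9 of 9) took 0.0248% to 0.663% and 2.71% to 3.58%. Over all tested genes, 32.8% were lower and 35.6% higher without overlap in FPKM. By the rule for calls given below, the neutrophil markers were not called, and among the erythroid markers only Hba-a1, Hba-a2 and Hbb-bs were. The highest young values of both blood lists belonged to 2-month replicate 2, which stood apart from replicates 1 and 3, and results that rest on it are also given without it. Among the aged libraries, 18-month replicate 1 stood apart, with the 0.169% of chondrocyte marker counts against 0.0633% and 0.0646% in replicates 2 and 3. Xist, which is expressed from the inactive X chromosome of females, had 88239 to 102417 counts at 2 months and 11 to 30 at 18 months. The 2-month counts are at odds with the male mice named in the methods. In every comparison of the ages below, the sex pattern cannot be told apart from age. In bulk cartilage, fewer cells of a type and less RNA per cell cannot be told apart, and the part of the marker shift in the results below was not tested.

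Transcripts of 2 alpha subunits, of Egln1 and of Vegfa were clearly lower in aged cartilage, and Hif3a was lower with less certainty. Calls required an adjusted p below 0.05 (quasi-likelihood test of edgeR, adjusted by Benjamini-Hochberg) and a change of more than 1 on the log2 scale. Hif1a, Epas1, Hif3a, Egln1 and Vegfa fell, which made 5 of 10 genes, against 21.3% of all tested genes called lower. None of the 10 rose by this rule in edgeR, DESeq2 or limma, against 14.9% of all tested genes in edgeR, and 1 of the 10, Egln2, was higher at an unadjusted p below 0.05 in edgeR. By FPKM alone, all aged values lay under all young values for 8 of 10 genes, against 32.8% of all tested genes, while Egln2 was higher in every aged library, against 35.6%. Only Egln3 overlapped between the ages. The median log2 fold change was −1.46 over the 10 genes and −0.02 over all tested genes.

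**Figure D1:**
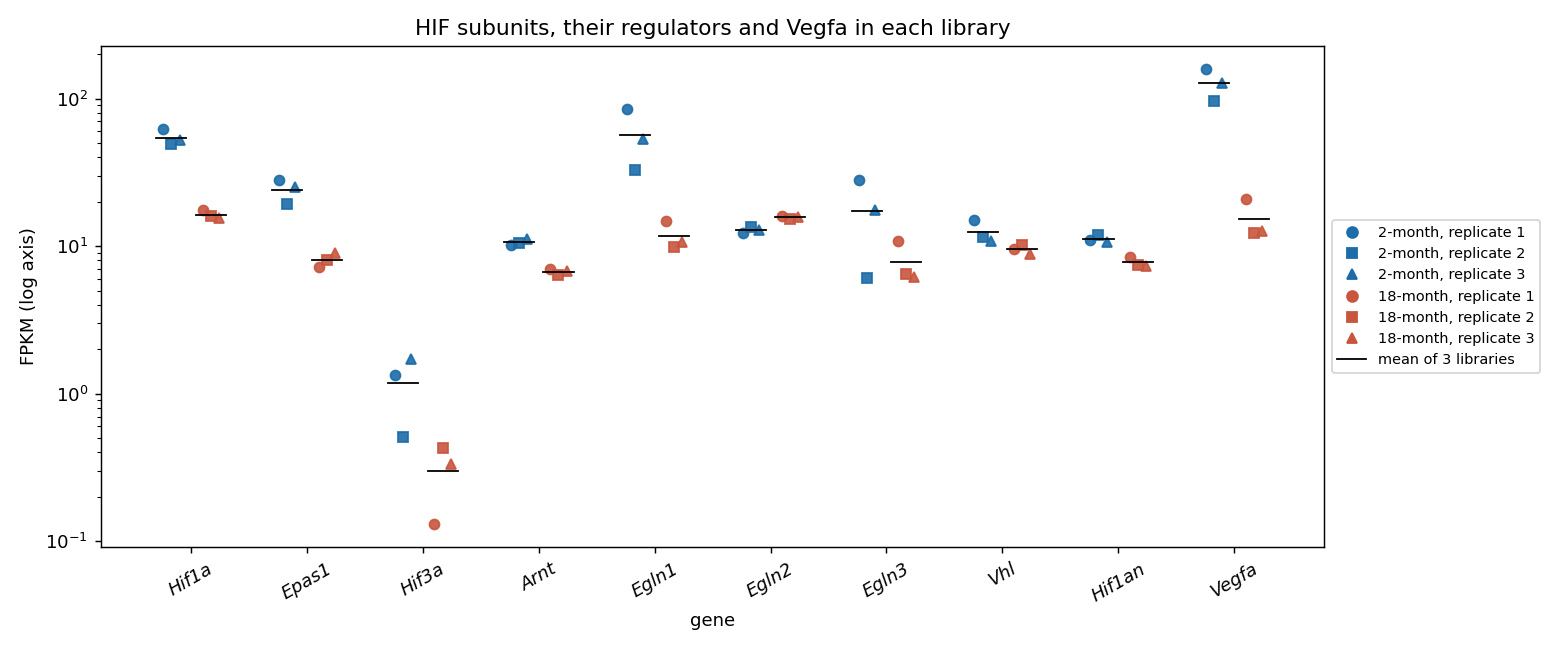
FPKM (log axis) of the 10 HIF genes in each of 6 libraries, with 2-month libraries in blue, 18-month libraries in red, a marker shape per replicate and a horizontal line at the mean of 3 libraries. The aged points of Hif1a, Epas1, Egln1 and Vegfa lie well below the young ones, the ages of Egln2 are close together with the aged points above, and those of Egln3 overlap.

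**Figure D2:**
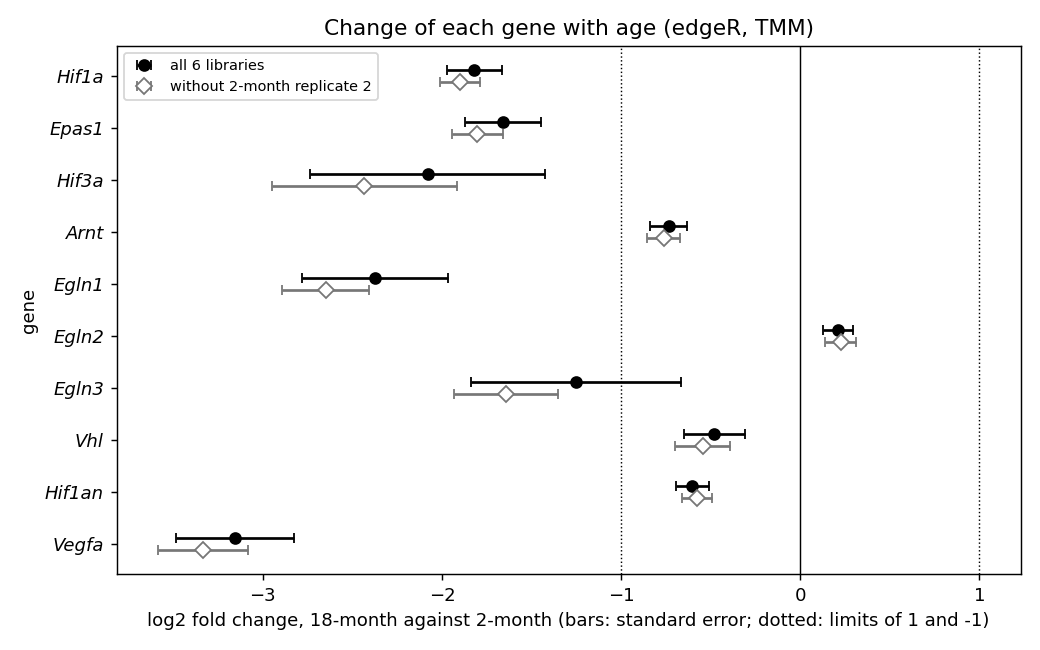
Log2 fold change, 18-month against 2-month, of the 10 HIF genes with bars of 1 standard error from edgeR's quasi-likelihood fit on all 6 libraries (filled circles) and without 2-month replicate 2 (open diamonds), and dotted lines at 1 and −1. With all libraries Vegfa has the lowest value (−3.16), followed by Egln1 (−2.37), and Egln2 is the only one above 0 (0.21).

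Hif1a (ENSMUSG00000021109, chr12:73901375-73947530, plus strand) encodes the oxygen-regulated subunit of HIF-1. Its FPKM was 61.8, 49.2 and 52.2 in the 2-month libraries and 17.5, 16.0 and 15.5 in the 18-month libraries. The ages did not overlap, and the aged libraries lay close together. Hif1a fell by 1.82 on the log2 scale (SE 0.15), a 3.53-fold lower level (edgeR adjusted p = 0.0012). An antisense gene, Gm15283, spans the whole of Hif1a, and whether strand was used in counting is not stated. Gm15283 itself had 187 to 409 counts at 2 months and 8 to 16 at 18 months, against 16970 to 20029 and 5841 to 6924 for Hif1a.

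Epas1 (ENSMUSG00000024140, chr17:86753700-86833410, plus strand) encodes HIF-2alpha, the alpha subunit tied to hypertrophic and degradative programmes in chondrocytes. It had 28.0, 19.3 and 25.1 FPKM in young cartilage and 7.19, 8.11 and 9.03 FPKM in aged cartilage. Every aged library was again below every young library. The log2 fold change was −1.66 (SE 0.21), a 3.16-fold lower level (edgeR adjusted p = 0.0025).

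Hif3a (ENSMUSG00000004328, chr7:17031507-17062427, minus strand) encodes the least abundant alpha subunit here, some of whose isoforms act as inhibitors of the other two. Its FPKM was 1.34, 0.508 and 1.71 at 2 months and 0.130, 0.428 and 0.337 at 18 months, from counts of 497, 201 and 647 and of 59, 182 and 146. The young replicate 2 and the aged replicate 2 were only a little apart, although the ages did not overlap. Hif3a fell by 2.08 on the log2 scale (SE 0.66, edgeR adjusted p = 0.042). The call was lost when any library other than 2-month replicate 2 was left out, that is 2-month replicate 1 (adjusted p = 0.090) or 3 (0.12) or 18-month replicate 1 (0.087), 2 (0.071) or 3 (0.10) in edgeR.

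The shares of the alpha subunits overlapped between the ages. Of the summed FPKM of the 3 genes, Hif1a made up 68.4% ± 2.62 (SD, n = 3) at 2 months and 66.0% ± 4.10 at 18 months. Epas1 made up 30.1% ± 1.91 and 32.7% ± 3.64, and Hif3a made up 1.46% ± 0.715 and 1.21% ± 0.620. No share was separated by age, with two-sided exact permutation p = 0.4 for Hif1a, 0.4 for Epas1 and 0.7 for Hif3a, where 0.1 is the smallest value that 3 against 3 libraries can give. A difference in the make-up of the family was therefore not detectable, and a p that misses the threshold does not show that the proportions were equal.

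Arnt (ENSMUSG00000015522, chr3:95434388-95497237, plus strand) encodes the beta subunit that all the alpha subunits need to bind DNA, and it is commonly regarded as constitutive. FPKM values of 10.2, 10.5 and 11.2 at 2 months and of 7.03, 6.39 and 6.77 at 18 months did not overlap. The log2 fold change of −0.74 (SE 0.10, edgeR adjusted p = 0.0032) stayed within the fold limit, so Arnt was not called. On the log2(TPM + 0.1) scale, where TPM gives every library the same sum, limma called it lower at −1.09 (adjusted p = 0.0014), and the median of all genes was at −0.33. In FPKM, Hif1a exceeded Arnt in all 6 libraries.

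Egln1 (encoding PHD2, the main oxygen sensor of the pathway, ENSMUSG00000031987, chr8:124908587-124949324, minus strand) was the only prolyl hydroxylase gene called with all 6 libraries. It measured 84.8, 32.8 and 53.2 FPKM in young and 14.8, 9.90 and 10.7 FPKM in aged cartilage. The young libraries were widely spread, with replicate 2 the lowest, yet even that one was above all aged libraries. The change was −2.37 on the log2 scale (SE 0.41), a 5.18-fold lower level (edgeR adjusted p = 0.0058).

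Egln2 (encoding PHD1, ENSMUSG00000058709, chr7:27158658-27166802, minus strand) differed little between the ages. Its FPKM was 12.3, 13.4 and 12.8 at 2 months and 16.1, 15.3 and 15.7 at 18 months, a narrow range at each age without overlap. The log2 fold change of 0.21 (SE 0.083) was not called (edgeR adjusted p = 0.076), and it turned to −0.14 on the log2(TPM + 0.1) scale. In 5 of 16 alternatives the adjusted p of Egln2 was below 0.05, among them DESeq2 (0.27, DESeq2 adjusted p = 0.011). The highest log2 fold change in any alternative was 0.29, within the fold limit. Relative to the median of all genes, Egln2 stood at 0.23 in the count test and at 0.19 by TPM.

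Egln3 (encoding PHD3, a hydroxylase that is itself strongly induced by hypoxia in many cells, ENSMUSG00000035105, chr12:54178981-54203860, minus strand) depended on 1 library. It had 27.9, 6.11 and 17.6 FPKM at 2 months and 10.8, 6.49 and 6.15 FPKM at 18 months, so that young replicate 2 was the lowest of all 6 libraries. With it the log2 fold change of −1.25 (SE 0.58) was not called (edgeR adjusted p = 0.12). Without 2-month replicate 2, Egln3 was called at −1.64 (SE 0.29, edgeR adjusted p = 0.0048), which made 6 of the 10 genes called lower against 21.3% of the 21489 genes then tested.

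The shares of the hydroxylases were separated by age for Egln1 and Egln2. Egln1 accounted for 67.8%, 62.7% and 63.6% of the summed FPKM of the 3 hydroxylases in young libraries and for 35.5%, 31.2% and 32.8% in aged libraries. Egln2 accounted for 9.83%, 25.6% and 15.3% and for 38.6%, 48.3% and 48.2%. Egln1 was the most abundant hydroxylase transcript in every young library and Egln2 in every aged library. The share of Egln1 differed by −31.5 percentage points and that of Egln2 by 28.1 percentage points, each without overlap (two-sided exact permutation p = 0.1, the smallest possible, and 0.3 after Benjamini-Hochberg adjustment over 6 shares). Egln3 held 18.4% ± 5.84 and 21.8% ± 3.70 (SD, n = 3), which overlapped (exact permutation p = 0.6).

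**Figure D3:**
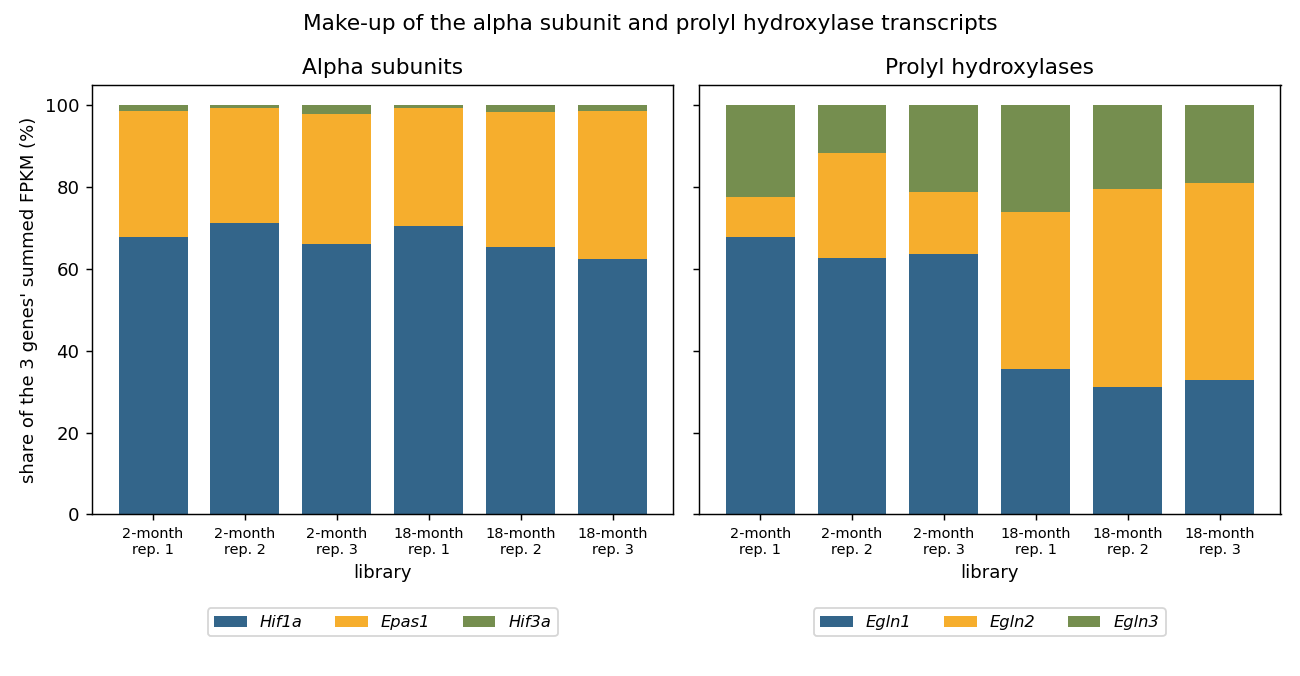
Share (%) of the summed FPKM of the 3 alpha subunit genes (left) and of the 3 prolyl hydroxylase genes (right), as stacked bars from 0 to 100 for each of the 6 libraries. The alpha subunit segments overlap between the ages, while the Egln1 segment shrinks from 62.7% or more in young libraries to 35.5% or less in aged ones and the Egln2 segment grows.

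Vhl (ENSMUSG00000033933, chr6:113623959-113631633, plus strand) encodes the substrate receptor that recognizes hydroxylated alpha subunits. Its level was 15.1, 11.6 and 10.9 FPKM at 2 months and 9.63, 10.1 and 8.82 FPKM at 18 months. The ages were separated by less than the spread among the young libraries, and the log2 fold change of −0.48 (SE 0.17) was not called (edgeR adjusted p = 0.057).

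Hif1an (ENSMUSG00000036450, chr19:44562850-44576274, plus strand) encodes the factor inhibiting HIF, which blocks recruitment of the coactivators p300 and CBP. It had 11.0, 11.9 and 10.6 FPKM at 2 months against 8.50, 7.42 and 7.38 FPKM at 18 months. These values did not overlap, and the log2 fold change of −0.60 (SE 0.091, edgeR adjusted p = 0.0040) remained within the fold limit.

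Vegfa (ENSMUSG00000023951, chr17:46016993-46032369, minus strand) encodes the angiogenic growth factor that hypertrophic chondrocytes release and that HIF proteins activate. Its FPKM was 159, 95.7 and 128 in young cartilage and 20.9, 12.3 and 12.7 in aged cartilage. The lowest young library exceeded the highest aged library several times over. Vegfa fell by 3.16 on the log2 scale (SE 0.33), an 8.91-fold lower level (edgeR adjusted p = 0.0017).

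The order of the levels changed accordingly. At 2 months Vegfa led with 128 ± 31.8 FPKM (SD, n = 3), above Egln1 at 56.9 ± 26.2 and Hif1a at 54.4 ± 6.60, which overlapped each other. Epas1 came next at 24.1 ± 4.39 FPKM. Egln3, Egln2, Vhl, Hif1an and Arnt followed between 17.2 ± 10.9 and 10.6 ± 0.510 FPKM, with each neighbour in the order from Epas1 to Arnt overlapping, and Hif3a stood apart at 1.19 ± 0.617 FPKM. At 18 months Hif1a at 16.3 ± 0.998, Egln2 at 15.7 ± 0.398, Vegfa at 15.3 ± 4.88 and Egln1 at 11.8 ± 2.63 FPKM could not be ranked, since each overlapped its neighbour. Vhl at 9.53 ± 0.667, Epas1 at 8.11 ± 0.922, Egln3 at 7.83 ± 2.62 and Hif1an at 7.77 ± 0.639 FPKM likewise overlapped in turn. Arnt at 6.73 ± 0.323 FPKM was below Hif1an without overlap and Hif3a was the lowest at 0.298 ± 0.152 FPKM.

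The core of the hypoxia response element, to which HIF dimers bind, reads ACGTG or GCGTG. RefSeq promoter windows of the 250 bases before the annotated start (GRCm38.p6) were found for 9 of the 10 genes, and 7 of the 9 held either motif on either strand in at least 1 window. Vegfa counted only through its second window, chr17:46025164-46025413, which lies inside the gene, and its first window had no match. By window, 8 of 11 held either motif. Of all 32851 windows of that length, 38.6% held either motif, with 16.6% for ACGTG and 28.2% for GCGTG. The windows of these genes contained 48% to 86% G and C bases, where the median of all windows was 52.4%. The Vhl and Hif1an windows had no match. A match of these letters is not evidence of binding. The windows of Hif1a and of the hydroxylases Egln1, Egln2 and Egln3, whose calls differed, are shown 5′ to 3′ on the strand of the gene with the motifs in capitals. In the Hif1a window the first capitals read CACGTG, an E-box that holds ACGTG on both strands. For Hif1a and for Egln1, the start annotated by RefSeq lies inside the span given for the gene above. CACGC in capitals is GCGTG on the opposite strand.
Hif1a, chr12:73907617-73907866, plus strand: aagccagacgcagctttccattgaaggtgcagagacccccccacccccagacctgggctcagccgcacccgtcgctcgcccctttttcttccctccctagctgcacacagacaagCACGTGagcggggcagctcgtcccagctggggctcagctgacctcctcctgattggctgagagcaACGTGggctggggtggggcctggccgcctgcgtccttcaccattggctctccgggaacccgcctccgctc
Egln1, chr8:124949255-124949504, minus strand: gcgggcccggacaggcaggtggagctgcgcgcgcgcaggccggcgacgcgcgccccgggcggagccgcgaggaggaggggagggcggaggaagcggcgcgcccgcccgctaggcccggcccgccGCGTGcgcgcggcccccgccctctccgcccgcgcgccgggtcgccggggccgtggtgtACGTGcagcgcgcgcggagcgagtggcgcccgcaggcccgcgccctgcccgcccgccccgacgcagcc
Egln2, chr7:27166803-27167052, minus strand: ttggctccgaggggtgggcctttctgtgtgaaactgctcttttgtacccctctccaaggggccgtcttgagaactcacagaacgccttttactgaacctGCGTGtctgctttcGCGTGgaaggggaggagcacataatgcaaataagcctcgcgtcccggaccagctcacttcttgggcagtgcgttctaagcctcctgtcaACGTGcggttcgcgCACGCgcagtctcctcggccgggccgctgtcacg
Egln3, chr12:54203875-54204124, minus strand: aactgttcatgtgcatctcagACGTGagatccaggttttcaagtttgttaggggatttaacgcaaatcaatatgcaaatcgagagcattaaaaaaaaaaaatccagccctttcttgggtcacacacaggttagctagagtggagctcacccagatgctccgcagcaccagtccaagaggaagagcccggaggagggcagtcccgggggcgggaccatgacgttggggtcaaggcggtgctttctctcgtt
The Egln1 window holds 1 match to each motif, at 126 and 68 bases before the start, and the Egln3 window a single ACGTG at 229 bases. The Egln2 window shown holds 4 matches. A second Egln2 window, chr7:27165729-27165978, lies inside the gene, is not shown and holds 1 GCGTG. All 3 hydroxylase windows shown thus held the motif, whether the gene was called or not.

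The other parts of the pathway were read from lists of genes grouped by function. Of 13 tested factors of the VHL complex and of HIF turnover, 4 fell and 1 rose (30.8% lower, against 21.3% of all tested genes), with a median log2 fold change of 0.17. Siah1b, a ubiquitin ligase of the SIAH family, rose from 1.01 ± 0.244 to 3.93 ± 0.836 FPKM (SD, n = 3), a log2 fold change of 1.88 (edgeR adjusted p = 0.0038). Ajuba and Wtip, LIM-domain scaffold proteins of 1 family, fell by 2.74 and 2.62 on the log2 scale (edgeR adjusted p = 0.0014 and 0.0018). Limd1, named because it is of the same family, was not called, with a log2 fold change of 0.32 (edgeR adjusted p = 0.30). Os9, which encodes a lectin of the endoplasmic reticulum reported to bind HIF-1alpha and its hydroxylases, was the most abundant gene of the list and fell from 89.4 ± 12.6 to 42.4 ± 8.19 FPKM. Its log2 fold change was −1.17 (edgeR adjusted p = 0.0058). The fourth gene that fell was Siah2 (−1.80), named after its value was seen. Elob, Eloc, Cul2 and Rbx1, named because they build the ligase around VHL, were not called and had log2 fold changes from 0.19 to 0.46.

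Among 7 partners and coactivators, 1 rose and 1 fell, with a median log2 fold change of 0.22. These are 14.3% in each direction, against 14.9% of all tested genes called higher and 21.3% called lower, so the list did not exceed the background. Cited4, which competes with HIF for the coactivator p300, rose from 0.494 ± 0.248 to 5.85 ± 0.693 FPKM, a log2 fold change of 3.49 (edgeR adjusted p = 0.0019). Arnt2, an alternative beta subunit best known from neurons, fell from 1.61 ± 0.807 to 0.212 ± 0.177 FPKM, a log2 fold change of −2.99 (edgeR adjusted p = 0.014). Its aged FPKM was 0.415 in replicate 1 and 0.119 and 0.101 in replicates 2 and 3. The log2 fold change was −3.90 without 18-month replicate 1, and without 18-month replicate 2 the call of Arnt2 was lost (edgeR adjusted p = 0.050). Hsp90ab1, a chaperone that stabilizes HIF-1alpha and the most abundant of the list, had 235 ± 5.97 and 290 ± 53.1 FPKM and was not called. Its log2 fold change was 0.22 in the count test and −0.14 by TPM.

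Hypoxia-induced genes were mostly lower. Of 22 tested genes of this list, 13 fell (59.1%, against 21.3% of all tested genes) and 1 rose, with a median log2 fold change of −1.24. Adm, which encodes the vasoactive peptide adrenomedullin, had 54.0, 16.3 and 29.2 FPKM at 2 months and 0.411, 0.300 and 0.635 FPKM at 18 months. It fell by 6.29 on the log2 scale (SE 0.64, edgeR adjusted p = 0.0016). P4ha2, which encodes a collagen prolyl hydroxylase subunit, fell from 92.1 ± 37.4 to 3.07 ± 2.84 FPKM, a log2 fold change of −5.02 (SE 0.81, edgeR adjusted p = 0.0048). Its aged replicate 1, at 6.35 FPKM, stood above the other two, both at 1.43 FPKM, and without it the log2 fold change was −6.07.

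The most abundant gene of the list was Ldha, encoding a subunit of lactate dehydrogenase. Its level was 442, 205 and 311 FPKM in young and 184, 145 and 146 FPKM in aged cartilage, with little distance between the lowest young and the highest aged library. The log2 fold change was −1.11 (SE 0.33, edgeR adjusted p = 0.036), and the call was lost in 8 of 16 alternatives. These included 5 of 6 fits that left out 1 library (2-month replicate 1 or 3, or any aged replicate) and limma on log2(FPKM + 0.1) and log2(FPKM + 1), where the log2 fold change was −0.95 in each. Pfkfb4, which encodes a bifunctional enzyme that sets the level of a glycolytic activator, moved the other way, from 4.01 ± 0.833 to 19.7 ± 2.68 FPKM. Its log2 fold change was 2.22 (SE 0.15, edgeR adjusted p = 8.4e-04).

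Genes reported elsewhere as HIF-2alpha targets in chondrocytes gave a mixed picture. Of 9 listed genes 8 were tested, and 3 fell in edgeR (37.5%, against 21.3% of all tested genes), with a median log2 fold change of −1.59. DESeq2 called 4 lower, against 4562 of the 20397 genes given to it, not all of which received an adjusted p. Each limma fit also called 4 lower, against 2217 to 5819 of all 21539 genes tested there. With all 6 libraries none rose in edgeR, DESeq2 or limma, against 14.9% of all tested genes called higher in edgeR, and 0 were higher at an unadjusted p below 0.05 in edgeR. Without 2-month replicate 2, 1 of the 8 was called higher, against 23.3% of the 21489 genes then tested. It was Adamts4 at 1.69 (edgeR adjusted p = 0.010), named after its value was seen. Mmp9 then stood at 3.23 and was not called (edgeR adjusted p = 0.10). Col10a1, the collagen of hypertrophic cartilage, had 2322, 2098 and 2077 FPKM at 2 months and 142, 19.6 and 18.7 FPKM at 18 months. Its aged replicate 1 stood above the other two, and the log2 fold change was −5.28 (SE 1.01, edgeR adjusted p = 0.0081). Without that library it was −6.88. Ptgs2, encoding the inducible cyclooxygenase, fell by 3.87 on the log2 scale (edgeR adjusted p = 0.0030). The third gene that fell was Mmp13 (−1.50), named after its value was seen.

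**Figure D4:**
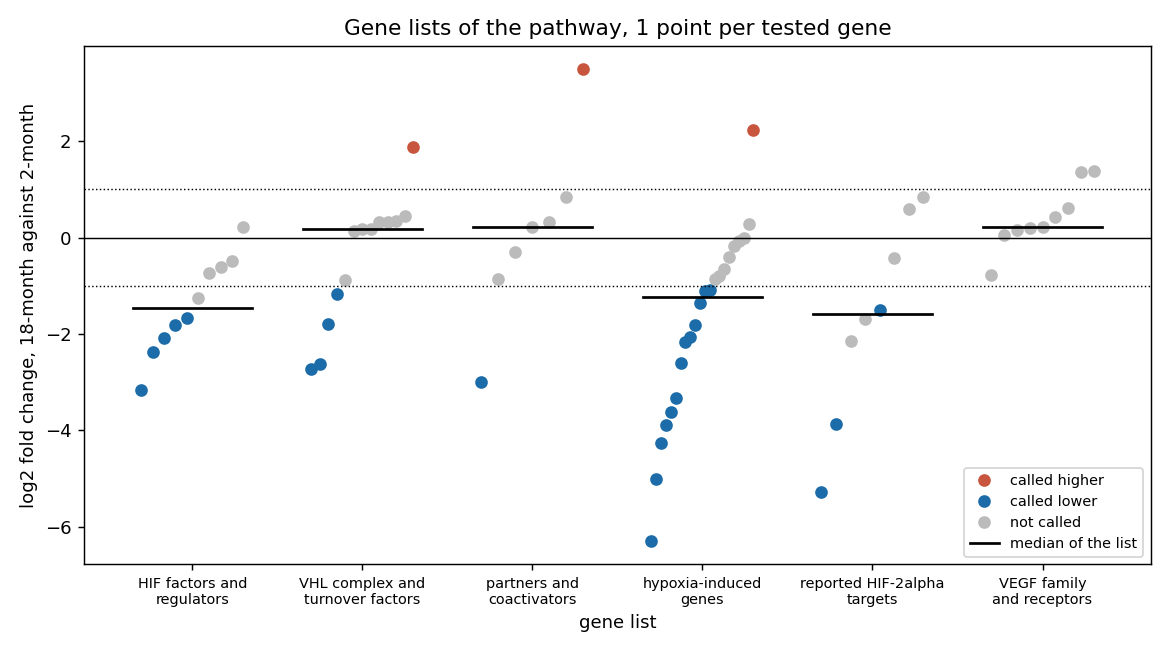
Log2 fold change, 18-month against 2-month, of the HIF genes and of each tested gene in the 5 lists, 1 point per gene from edgeR's quasi-likelihood fit, with genes called higher in red, called lower in blue and not called in grey, a line at the median of each list and dotted lines at 1 and −1. The hypoxia-induced genes spread below 0 with a median of −1.24, and no gene of the VEGF list is called.

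For the other VEGF ligands and the VEGF receptors, the outcome rested on 1 library. None of the 9 tested genes was called in either direction in edgeR or DESeq2 with all 6 libraries (0 at an unadjusted p below 0.05), against 21.3% of all tested genes called lower and 14.9% called higher in edgeR, and their median log2 fold change was 0.21. Nrp2, a coreceptor and the most abundant gene of the list, had 0.733, 21.7 and 1.85 FPKM at 2 months and 8.75, 8.00 and 8.59 FPKM at 18 months. Young replicate 2 lay above the aged libraries and the other two young libraries below them. The log2 fold change of Nrp2 was 0.06 (SE 1.14, edgeR adjusted p = 0.97). DESeq2 gave no adjusted p for Nrp2, so this gene could not be called there.

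Without 2-month replicate 2, 7 of the 9 genes were called higher, against 23.3% of the 21489 genes then tested, and the median log2 fold change was 2.45. The 7 genes, named after their values were seen, were Vegfc, Pgf, Flt1, Kdr, Flt4, Nrp1 and Nrp2, with log2 fold changes from 1.13 to 4.01. Nrp2 then stood at 2.60 (SE 0.41, edgeR adjusted p = 0.0032). Vegfb was called lower at −1.03 in the same fit. Endothelial markers took 0.00117%, 0.0291% and 0.00448% of counts at 2 months and 0.0209% to 0.0228% at 18 months, with young replicate 2 the highest of all 6 libraries, as for Nrp2. Of the 8 endothelial markers 1 was higher without overlap, against 35.6% of all tested genes. The part of endothelial cells in the receptor values was not tested.

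**Figure D5:**
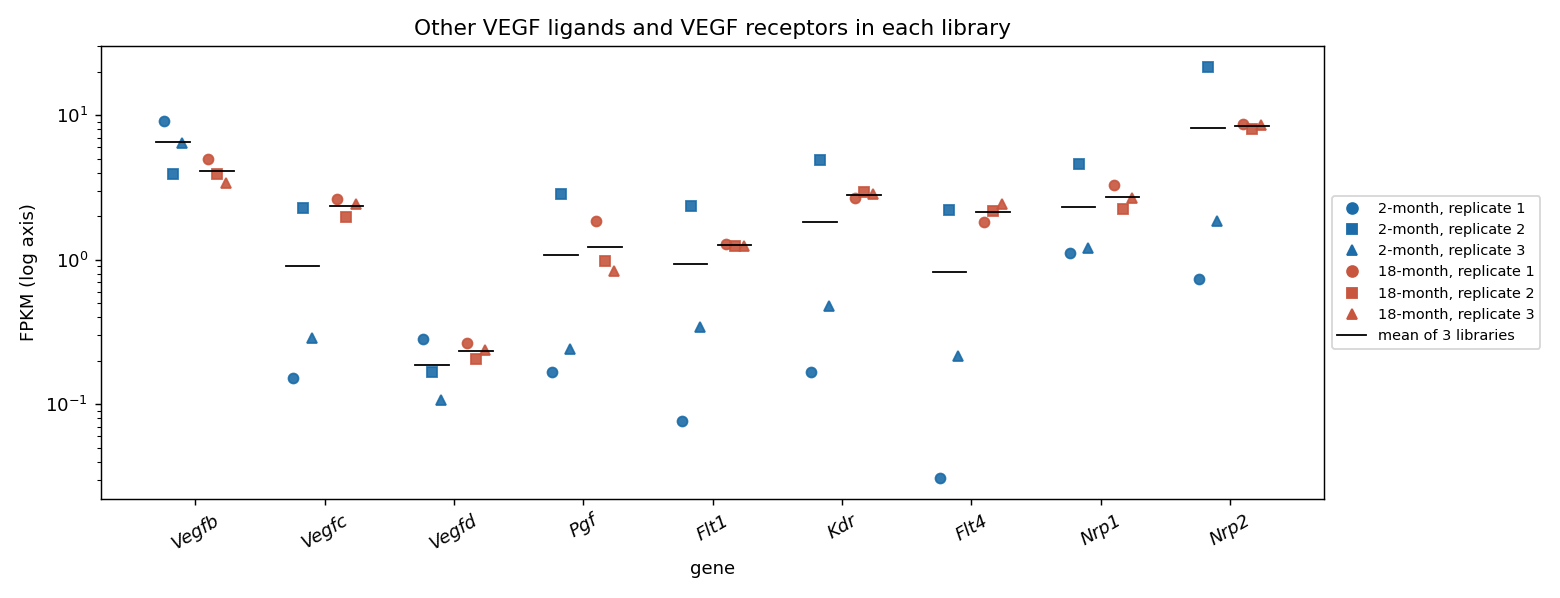
FPKM (log axis) of the 9 other VEGF ligands and receptors in each of the 6 libraries, with the mean of 3 libraries as a horizontal line and a marker shape per replicate. The young square, replicate 2, lies near or above the aged points for Vegfc, Pgf and the receptors, while the other young points lie below.

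The transcripts with the pattern most like each leading gene were sought over 6 libraries among 13899 genes, as the root mean square difference of log2 levels after centring. Nearest to Hif1a were Nckap1 (0.064), Ift46 (0.069) and Utrn (0.075). Osbpl1a (0.043), Rnf103 (0.076) and Atraid (0.086) were nearest to Epas1. Vegfa was matched most closely by Gaa (0.071), Ackr3 (0.089) and Snhg18 (0.096). The nearest genes to Egln3, Gm37027 (0.27), Rasgef1b (0.29) and Gm25219 (0.32), were several times farther away.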

How the data were processed

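Total RNA of articular cartilage was purified for mRNA with oligo(dT), libraries carried unique molecular identifiers and a dUTP-marked strand, and paired reads of 150 bases were sequenced. The read counts per gene and the FPKM values were made and deposited by the authors in 1 table of 33971 genes. The submitters' processing notes name cutadapt 1.9, HISAT2 2.0.4, UMI-tools, StringTie 1.3.4d, DESeq2 and edgeR, without saying which made the counts. The genome build and the use of strand in counting are not given in the sources used here, but the positions of 9 of the 10 HIF genes were identical to GENCODE M21 (GRCm38), and 0 columns of per-library values were left out.

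Deposited counts were tested with edgeR 4.0.16 in R 4.3.3 (filterByExpr, TMM scaling, quasi-likelihood F-test, 3 libraries against 3, no block), and p-values were adjusted over all 20397 tested genes. Standard errors were taken from the log2 fold change and the F statistic. Shares of FPKM were compared by exact permutation (SciPy 1.17.1). The scripts were tested on simulated data. Alternatives used DESeq2 1.42.0, limma 3.58.1 on FPKM and TPM (pseudocounts of 0.1 and 1), other scalings and filters, and fits without 1 library. No pair of replicates differed by as little as sampling noise, and each library was counted once. The HIF genes and the gene lists were chosen with earlier results of these data known. Genes named from a list were, among those called with 1 FPKM or more at either age, up to 2 with the largest rise and 2 with the largest fall, and the most abundant gene.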

Additional observations from a re-analysis of the deposited data

How the results depend on the processing

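Hif1a, Epas1, Egln1 and Vegfa were called lower in all 16 alternatives, with log2 fold changes from −2.16 to −1.67 for Hif1a, −1.99 to −1.45 for Epas1, −2.65 to −1.94 for Egln1 and −3.51 to −2.94 for Vegfa. Hif3a was called in 7 of 15 alternatives and lost the call with no filter (edgeR adjusted p = 0.060) and by limma on log2(FPKM + 1) (−0.72). Over all genes, leaving out 1 library gave 2095 to 5007 genes called higher, the latter without 2-month replicate 2, against 3047 with all libraries. By limma on log2(FPKM + 1), 2217 genes were called lower against 4354, and 57.8% of calls were higher against 41.2%. Of partners and coactivators, 0 were called lower when genes averaging under 1 FPKM were dropped, against 2972 of the 14018 genes then tested. That filter removed Arnt2, the 1 partner called lower in the main fit, so the 0 follows from the filter. By TPM 2 partners were called lower, and 1 gene of the VEGF list was also lower. Across fits without 1 library, partners called lower ranged from 0 to 1, HIF-2alpha targets called higher from 0 to 1, VEGF genes called higher from 0 to 7 and lower from 0 to 1. The Hif3a share changed sign without 2-month replicate 3 (0.10 percentage points) or 18-month replicate 1 (0.087 points), against −0.25 points with all libraries and −0.62 points without 2-month replicate 2. Without 1 library, the difference in share ranged from −4.56 to −0.52 points for Hif1a and from 0.84 to 4.47 points for Epas1 (each bound without 18-month replicate 1 or 3), and from 0.083 (without 2-month replicate 2) to 5.43 points for Egln3 (without 2-month replicate 1). By TPM, Arnt was called (−1.09), which made 6 of the 10 HIF genes lower, where 5819 of all 21539 genes then tested were called lower. Egln2 and Hsp90ab1 turned to −0.14 by TPM. The FPKM of a library summed to between 269587 and 293108 at 2 months and between 360503 and 387502 at 18 months. TPM makes these sums equal, while the comparisons of FPKM between the ages above do not. Nrp2 turned to −0.042 under the same FPKM filter, and without 1 library it ranged from −0.48 (without 2-month replicate 1) to 2.60 (without 2-month replicate 2), with −0.40 without 2-month replicate 3. The cause of these shifts was not tested.

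Replicate numbers are shared by the ages. The deviations of same-numbered libraries correlated at 0.034, 0.044 and −0.024, and those of the other pairs at −0.055 to 0.053. With 3 libraries per age these values cannot decide whether same-numbered libraries were paired, and the main fit assumed no pairing. With the replicate block, 2523 of the 20397 tested genes were called higher and 3509 lower, 4 of the 10 HIF genes were called lower, and Hif3a had an adjusted p of 0.11 in edgeR. The block also ended the call of Ldha (edgeR adjusted p = 0.052) and gave 4 HIF-2alpha targets lower against 3.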

Other observations

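Ratios of FPKM between the HIF genes within each library were computed after their levels had been seen and are given as a description. The FPKM of Vegfa divided by that of Hif1a was 2.58, 1.95 and 2.44 in the young libraries and 1.20, 0.766 and 0.815 in the aged ones, without overlap. Vhl stood at 0.230 ± 0.0186 (SD, n = 3) of the Hif1a FPKM at 2 months and at 0.584 ± 0.0425 at 18 months. Hif1an went in the same measure from 0.208 ± 0.0322 to 0.475 ± 0.0124 and Arnt from 0.197 ± 0.0281 to 0.412 ± 0.0204, both without overlap. The ratio of Hif1a to Epas1, 2.28 ± 0.237 and 2.04 ± 0.359, overlapped between the ages.

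Within the hypoxia-induced list, further genes named after their values were seen fell strongly in the count test. Bnip3, a mitophagy receptor, had a log2 fold change of −4.26 (edgeR adjusted p = 0.0024). P4ha1, which encodes another isoform of the subunit encoded by P4ha2, stood at −3.62 and Slc2a1, the glucose transporter GLUT1, at −3.32. Bnip3l (−0.41), Mxi1 (−0.08) and Pfkfb3 (−0.01) were not called.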
